A study of Mus musculus with 6 samples.

Results

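The genes described here encode 35 subunits of voltage-gated calcium channels and of potassium channels, 16 and 19 genes respectively, out of 21887 protein-coding genes of the mouse genome. They were listed by name, with earlier results of these data known. Their Foxa1 and Foxa2 regions were collected from ChIP-seq (chromatin immunoprecipitation sequencing) peak lists. A region belonged to a gene when its summit lay inside the gene, or else when that gene's end was the nearest one within 100 kb. By this rule the channel genes held 192 of 54226 Foxa1 regions at 2 weeks, 317 of 35869 Foxa1 regions at 6 months, and 343 of 34942 Foxa2 regions at 6 months. A region's position does not tell which gene it acts on.

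The study followed where Foxa1 and Foxa2 bind during prostate cancer progression. Material came from C57BL/6 mice given tamoxifen for 2 weeks or 6 months, described as prostate tumor cells, with 3 prostates named in the extraction protocol. The genotype, and the Cre or allele on which tamoxifen acted, are not named in the labels. Each time point had 1 library with a Foxa1 antibody, 1 with a Foxa2 antibody and 1 input; the inputs were not used here. Since every group is a single library, differences between times or factors have no replicate check, and no p-value is given. The Foxa2 list at 2 weeks held 1 region, with 0 at a channel gene, and enters no comparison. Read depths are unknown, and peak lists carry no expression values, so the labelled cell type was not checked against markers.

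Foxa1 and Foxa2 are forkhead transcription factors that open compacted chromatin, and Foxa1 acts beside the androgen receptor in luminal prostate cells. A voltage-gated calcium channel is built from a pore-forming alpha1 subunit, which sets the current type, a cytoplasmic beta subunit and an extracellular alpha2delta subunit, both of which bring the pore to the membrane. Potassium channels repolarise cells, and their families differ in what opens them: voltage, internal calcium, G proteins, internal sodium or membrane stretch. Many of these genes are long and best known from neurons, heart and endocrine cells.

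Start windows were compared with the lists first. Of 43 start windows of RefSeq (build GRCm38.p6, 250 bases before to 50 after a start), which covered 27 of the 35 genes, 0 were overlapped by a region of any list, against 3.97% of all windows for Foxa1 at 2 weeks, 2.54% for Foxa1 at 6 months and 2.36% for Foxa2. With 43 windows, 0 is near those shares. The start windows of Cacna2d3 and Kcnma1, the genes with the most regions at 6 months and at 2 weeks, are shown for that reason, 5′ to 3′ on the gene's strand, with the start base in capitals. The Cacna2d3 window is chr14:29721815-29722114, minus strand, with a GC content of 81.3%, and its nearest region lay 2.79 kb away. The Kcnma1 window is chr14:24004156-24004455, minus strand, with a GC content of 78%, and its nearest region lay 4.44 kb away.
Cacna2d3: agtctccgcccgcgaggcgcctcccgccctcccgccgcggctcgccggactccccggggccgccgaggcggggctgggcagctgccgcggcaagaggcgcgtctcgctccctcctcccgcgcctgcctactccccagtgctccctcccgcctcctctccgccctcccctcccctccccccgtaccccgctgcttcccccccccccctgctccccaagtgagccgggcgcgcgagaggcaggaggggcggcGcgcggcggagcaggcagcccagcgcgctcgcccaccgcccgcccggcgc
Kcnma1: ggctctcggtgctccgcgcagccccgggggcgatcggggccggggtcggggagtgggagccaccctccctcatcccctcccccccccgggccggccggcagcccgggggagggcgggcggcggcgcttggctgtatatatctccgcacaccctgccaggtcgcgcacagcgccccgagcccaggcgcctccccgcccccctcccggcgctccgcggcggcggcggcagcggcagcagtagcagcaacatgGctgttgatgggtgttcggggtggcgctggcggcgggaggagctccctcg

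Start windows of other RefSeq genes, outside the protein-coding set, did lie under channel gene regions. The 3 shown were chosen after the values were seen, because each whole window lay inside a region. The window of Gm46177 (chr1:189500289-189500588, minus strand) held the summit of a 2-week Foxa1 region assigned to Kcnk2 at 97.77 kb (chr1:189499693-189500855, fold enrichment 8.07, -log10 q 25.0). The window of Gm43000 (chr5:16002911-16003210, minus strand) lay under regions within Cacna2d1 of both factors at 6 months, chr5:16002098-16003954 for Foxa1 (-log10 q 25.8) and chr5:16001783-16003891 for Foxa2 (-log10 q 19.4), and held the Foxa2 summit. The window of Gm41363 (chr15:80400570-80400869, minus strand) lay under a 6-month Foxa1 region assigned to Cacna1i (chr15:80399846-80402215, -log10 q 34.5). Capitals mark a match to TGTTTAC or TATTTAC, letters typical of forkhead sites, in either direction; the match starts at base 172 in the first window, as the reverse complement, and at base 69 in the second. The last window holds no match and has no capitals.
Gm46177: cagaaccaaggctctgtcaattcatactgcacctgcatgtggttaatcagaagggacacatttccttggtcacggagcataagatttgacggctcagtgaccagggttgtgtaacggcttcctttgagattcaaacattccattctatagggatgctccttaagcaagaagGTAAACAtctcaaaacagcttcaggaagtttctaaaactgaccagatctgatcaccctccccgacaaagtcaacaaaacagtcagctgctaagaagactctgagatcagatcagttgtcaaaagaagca
Gm43000: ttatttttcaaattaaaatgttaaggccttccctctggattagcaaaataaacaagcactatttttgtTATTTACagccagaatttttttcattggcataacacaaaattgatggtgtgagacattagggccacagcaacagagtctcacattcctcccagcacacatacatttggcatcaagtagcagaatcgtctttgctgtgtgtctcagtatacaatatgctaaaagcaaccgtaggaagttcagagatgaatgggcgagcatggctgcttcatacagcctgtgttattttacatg
Gm41363: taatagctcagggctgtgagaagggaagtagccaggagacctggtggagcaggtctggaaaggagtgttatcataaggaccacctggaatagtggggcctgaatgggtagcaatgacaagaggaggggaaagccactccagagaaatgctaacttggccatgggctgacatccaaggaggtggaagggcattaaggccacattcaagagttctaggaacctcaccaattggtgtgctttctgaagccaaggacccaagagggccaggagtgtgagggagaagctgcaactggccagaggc

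The 43 channel gene start windows themselves were searched on both strands. The letters TGTTTAC occurred in 0 of them and in 3.65% of all 32851 RefSeq windows. For the variant TGTTTGC the values were 0 and 5.07%, and for the variant TATTTAC 0 and 3.04%. TGACTCA, a sequence bound by AP-1 factors, occurred in 1 of them, at Kcnk2 (2.33% against 5.20%). Such a match is a description of the letters, and its absence says only that they are not in these 300 bases.

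Counts per gene used lists of equal length, made by keeping the 34942 regions with the highest -log10 q (the authors' value) in each. Ties were broken by fold enrichment and then by chromosome name. At equal length the 2-week list stopped at a -log10 q of 4.52 and the 6-month Foxa1 and Foxa2 lists at 1.53 and 1.31, so the later lists reach weaker regions. Counts below are always given for 2-week Foxa1 first, then 6-month Foxa1, then 6-month Foxa2. A gene was tested for a change when its lists held at least 5 regions together, and was called when the ratio of counts, with 1 added to each, was at least 2-fold.

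Calcium channel genes held 50, 146 and 170 regions, and potassium channel genes 80, 162 and 173. From 2 weeks to 6 months the summed Foxa1 count was 2.92 times as high at calcium channel genes and 2.02 times as high at potassium channel genes, where all protein-coding genes stood at 0.972. With a limit of 5 on the -log10 q these ratios were 1.61, 1.00 and 0.454, and with near regions joined 1.84, 1.38 and 0.693. Of 9 calcium channel genes tested, 7 were called higher at 6 months and 0 lower; among all genes tested 23.4% were called higher and 23.0% lower. For potassium channel genes 11 of 15 were called higher and 1 lower. The median difference was 8 regions over the tested members of both families and 0 over all genes tested. Over all members, tested or not, it was 0.5 regions for calcium and 4.00 for potassium channel genes, and 0 over all protein-coding genes. A gene can pass the limit of 5 regions through 1 list alone, and members with fewer were not tested. Of all 16 calcium channel genes 8 had more regions at 6 months and 4 fewer, against 8 and 1 among those tested. Of all 19 potassium channel genes 14 had more and 3 fewer, against 13 and 1. Over all protein-coding genes 3819 had more and 5816 fewer.

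Channel genes are long, so each was also set beside the 200 other genes closest to it in territory, meaning the length of genome whose summits would be assigned to the gene. Among genes of like territory to the calcium channel genes 28.8% were called higher and 20.7% lower, and among those of like territory to the potassium channel genes 31.5% and 17.2%. Per 100 kb of territory, calcium channel genes held 0.941, 2.75 and 3.2 regions and their like-territory genes 1.40, 1.70 and 1.69. Potassium channel genes held 0.811, 1.64 and 1.75, and their like-territory genes 1.38, 1.74 and 1.72. Both families were thus below genes of like territory at 2 weeks. At 6 months calcium channel genes were above them and potassium channel genes were close to them. Without Cacna2d3, left out after the data were seen, the calcium channel genes held 1.00, 2.03 and 2.51 per 100 kb. The like-territory values were not recomputed without it.

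**Figure D1:**
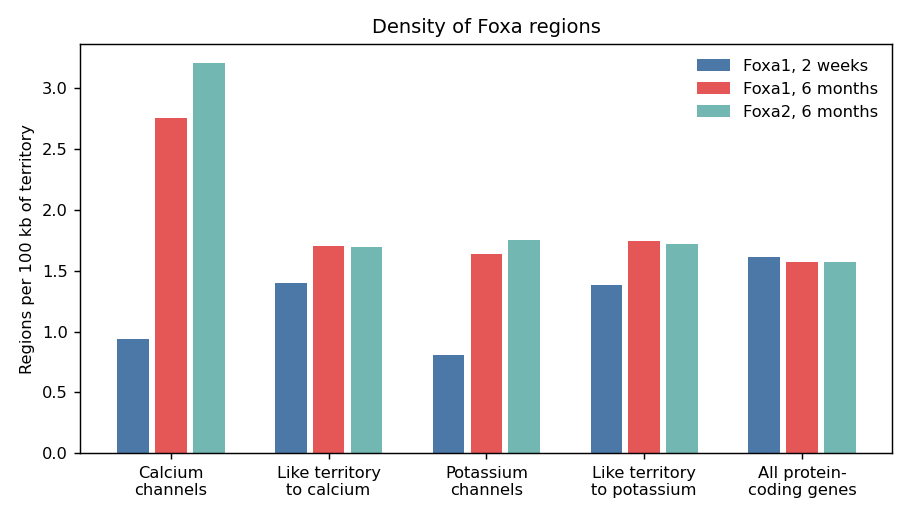
Regions per 100 kb of territory (vertical axis) in the 3 lists of equal length, for calcium channel genes, potassium channel genes, their genes of like territory and all protein-coding genes; each bar is 1 library, with no error bar. Calcium channel genes go from 0.941 to 2.75 and 3.2, while all protein-coding genes stay between 1.57 and 1.61.

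The higher Foxa1 sums came with more regions per gene, while the number of genes with a region was nearly the same. Calcium channel genes with at least 1 region numbered 11, 9 and 14 of 16. The background over all genes was 43.0%, 33.5% and 35.4%, and over genes of like territory 66.1%, 61.8% and 62.7%. Potassium channel genes with a region numbered 17, 18 and 17 of 19, where genes of like territory had 80.3%, 80.2% and 80.8%. At 2 weeks 5 calcium channel genes were above the median of their like-territory genes and 8 below, and at 6 months 9 were above and 2 below for Foxa1. Potassium channel genes went from 3 above and 14 below to 12 above and 5 below.

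**Figure D2:**
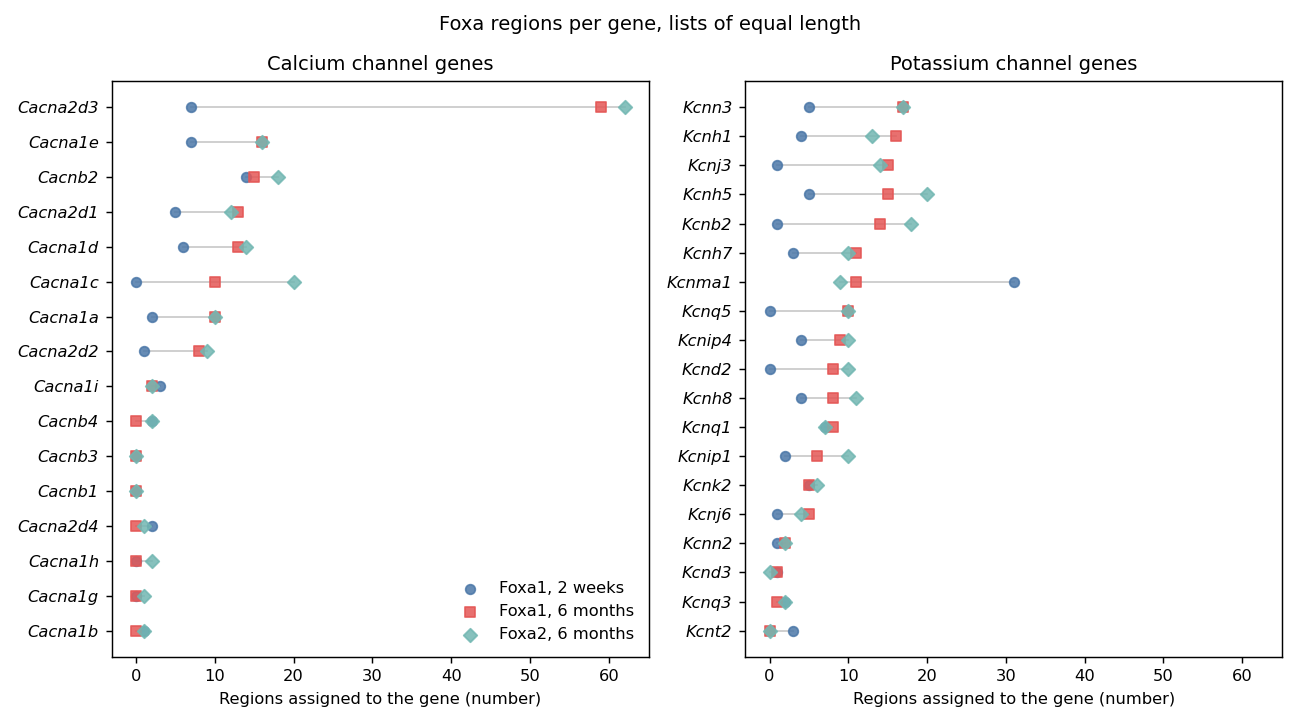
Number of regions assigned to each of the 16 calcium (left) and 19 potassium (right) channel genes in the 3 lists of equal length; each point is 1 library and the grey line spans the 3. Cacna2d3 lies far to the right at 6 months (59 and 62 against 7), and Kcnma1 is the gene whose 2-week point is farthest above its 6-month points (31 against 11 and 9).

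Among the alpha2delta subunits, Cacna2d3 stood apart with 7, 59 and 62 regions over a gene of 818 kb (chr14:28904943-29722775). Of its like-territory genes 99.5% had fewer regions in each 6-month list, and 56.0% had fewer at 2 weeks. Without Cacna2d3, an alternative chosen after seeing the data, the calcium channel genes still held 43, 87 and 108 regions, a ratio of 2.02. Cacna2d1, which binds gabapentin, had 5, 13 and 12 regions, and Cacna2d2 had 1, 8 and 9, where 92.0% of its like-territory genes had fewer Foxa1 regions at 6 months. Both had more 6-month regions of either factor than 2-week Foxa1 regions; a change of Foxa2 over time was not measured. Cacna2d4 went the other way with 2, 0 and 1, too few to test.

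The regions of Cacna2d3 were spread along the gene, not gathered at its start. In successive 100 kb steps from its 5′ end the full 6-month Foxa1 list held 8, 7, 7, 9, 8 and 11 regions, then 0 and 0, then 10 around and beyond its 3′ end; 1 more lay upstream. The Foxa2 list followed with 10, 10, 7, 10, 8, 5, 1, 0 and 11. At 2 weeks the same steps held 0, 0, 1, 1, 1, 3, 1, 0 and 4, followed by 1 farther out. The highest -log10 q, 45.3 with a fold of 12.0, was shared by a pair of regions beyond the 3′ end, chr14:28884377-28885908 at 19.7 kb and chr14:28879225-28880182, both also in both 6-month lists. Of 61 Foxa1 regions at 6 months 5 overlapped a 2-week region, 8.20% (exact 95% interval 2.72 to 18.1%), and 43 overlapped a Foxa2 region. Many lay close together: with regions under 1 kb apart joined, the counts were 7, 34 and 38, and the longest run was 6 Foxa1 regions in 5.01 kb (chr14:28874950-28879955). A limit of 5 on the -log10 q gave counts of 7, 26 and 21.

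**Figure D3:**
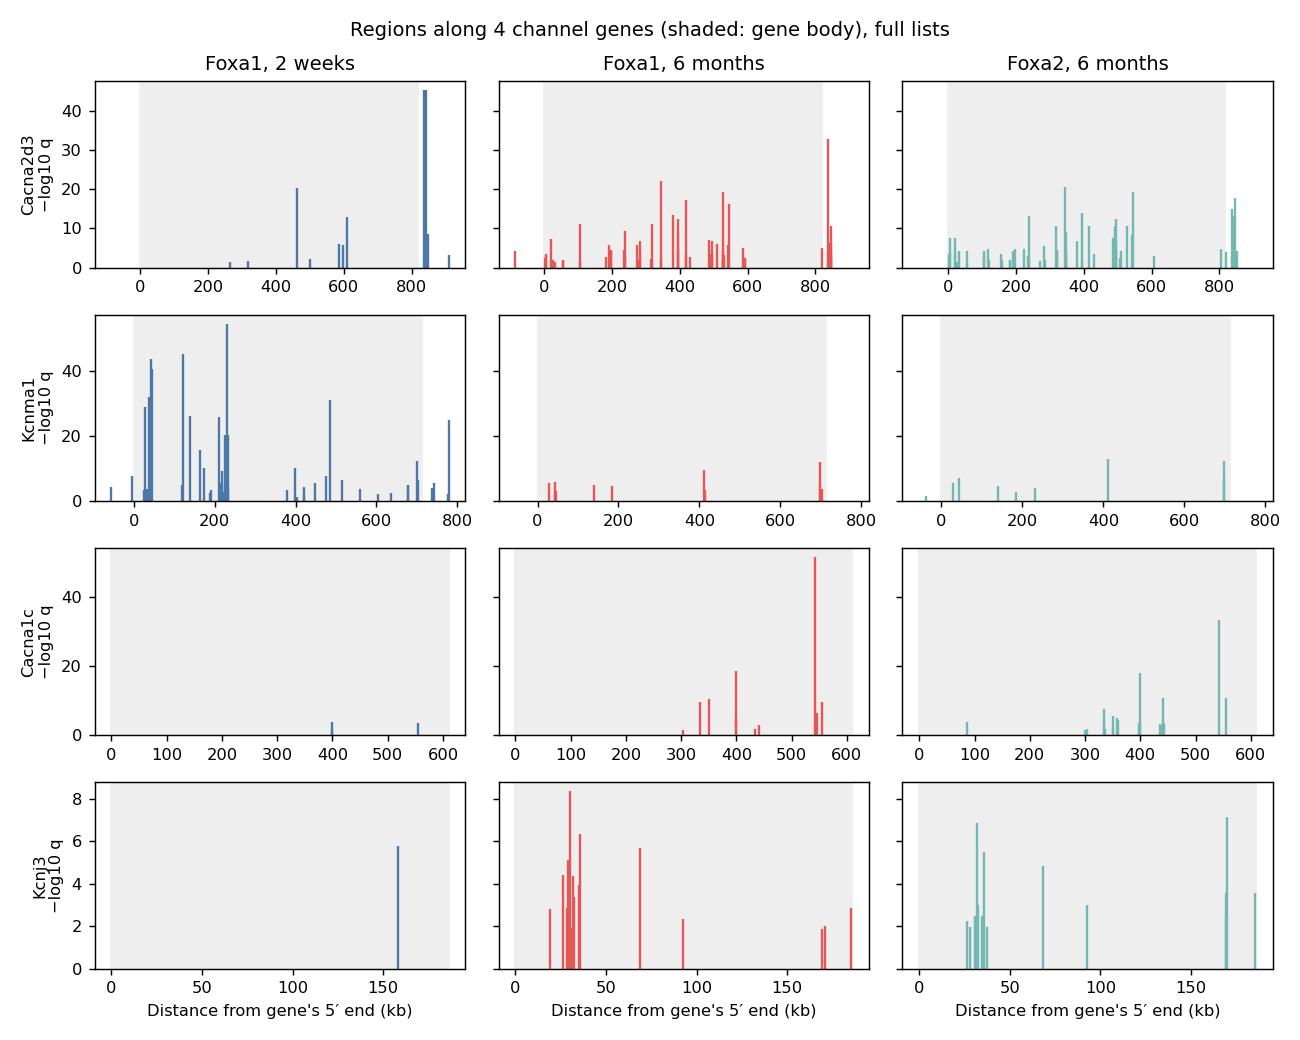
Position of each region from the gene's 5′ end in kb (horizontal) and its -log10 q (vertical, scale set per gene) for Cacna2d3, Kcnma1, Cacna1c and Kcnj3 in the 3 full lists; the grey band is the gene body. Cacna2d3 is densely filled between 0 and 600 kb at 6 months and sparsely at 2 weeks, Kcnma1 has 46 regions at 2 weeks against 11 and 9, and Kcnj3 has 1 against 15 and 14.

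Most pore genes of high-voltage-activated channels held more Foxa1 regions at 6 months, and the low-voltage-activated, T-type genes held few in any list. The 8 pore genes together had 19, 51 and 66 regions. Cacna1c, the L-type pore of heart and smooth muscle, had 0, 10 and 20, and Cacna1d, the other L-type pore listed, had 6, 13 and 14. The R-type pore gene Cacna1e had 7, 16 and 16, and the P/Q-type pore gene Cacna1a had 2, 10 and 10. All 4 were called higher at 6 months, Cacna1d exactly at the 2-fold limit. The N-type pore gene Cacna1b had 1, 0 and 1. Of the T-type pores, Cacna1g had 0, 0 and 1, Cacna1h had 0, 0 and 2, and Cacna1i had 3, 2 and 2.

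At Cacna1c nearly all regions were of the late time point. Its full 2-week list held 3 regions, all under the -log10 q of 4.52 at which the equal-length list stopped, and all 3 overlapped a 6-month Foxa1 region. Its strongest region, 542 kb from the 5′ end within the gene, was chr6:118653264-118656674 for Foxa1 (fold 7.25, -log10 q 51.5, within the top 0.594% of the list) and chr6:118653479-118655846 for Foxa2 (fold 6.04, -log10 q 33.4), with no overlapping region at 2 weeks. Of its 20 Foxa2 regions 13 were in no Foxa1 list. With near regions joined the counts were 0, 8 and 12. With a limit of 5 on the -log10 q they were 0, 6 and 6, so above that limit Foxa2 had no surplus in number. The strongest of the 13 Foxa2 regions in no Foxa1 list, chr6:118755848-118756793, had a -log10 q of 10.7.

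Cacna1e held the strongest 6-month channel gene region of both factors, and this one was already listed at 2 weeks. It lay 71.8 kb upstream of the gene: chr1:154955690-154957295 at 2 weeks (fold 11.2, -log10 q 46.2), chr1:154953480-154957798 for Foxa1 at 6 months (fold 12.1, -log10 q 58.6) and chr1:154955290-154957467 for Foxa2 (fold 14.5, -log10 q 61.8). It was within the top 2.64%, 0.348% and 0.109% of the respective lists. A second Cacna1e region, inside the gene 212 kb from its 5′ end (chr1:154671869-154673939, Foxa1 -log10 q 39.0), was in the 6-month lists of both factors and not in the 2-week list.

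The beta subunit genes had similar Foxa1 sums at both times, with 16, 15 and 20 regions in all. Cacnb2 accounted for nearly all of them with 14, 15 and 18. It held the strongest 2-week region of any channel gene, 29.8 kb upstream (chr2:14573157-14575807, fold 16.0, -log10 q 70.4), which overlapped a Foxa1 but no Foxa2 region at 6 months. Of its 17 full-list 2-week regions 12 were in neither 6-month list, a share near the 73.9% of all 2-week regions at genes. Cacnb4 had 2, 0 and 2 regions, and Cacnb1 and Cacnb3, the shortest members at 21.5 and 16.1 kb, had 0 in every list.

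Voltage-gated potassium channel genes, 10 in number, had 27, 92 and 101 regions. In the EAG family Kcnh1 had 4, 16 and 13, Kcnh5 had 5, 15 and 20, and Kcnh7 had 3, 11 and 10, all called higher. Kcnh8 had 4, 8 and 11 and, at a ratio of 1.80, fell just short of a call. Its 2-week regions chr17:52837921-52838156 and chr17:52838371-52838682 were tied at the last -log10 q kept, 4.52. The missing call thus depends on how ties were broken. Kcnq5, a subunit of M-type currents, had 0, 10 and 10, and in the full 2-week list still 0. The related genes differed from it: Kcnq1, which carries a repolarising current in heart and epithelia, had 7, 8 and 7, and Kcnq3 had 2, 1 and 2.

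The 3 strongest potassium channel regions for Foxa1 at 6 months were in these families. Kcnq5 held chr1:21643237-21644541, 319 kb from its 5′ end (fold 9.35, -log10 q 38.5 for Foxa1, 35.8 for Foxa2). Kcnh5 held chr12:75062520-75066874 (-log10 q 33.9 for Foxa1, 36.9 for Foxa2), and neither region overlapped a 2-week region. A 2-week region, chr12:75066922-75067408 (-log10 q 7.86), did begin just beyond the end of the Kcnh5 region, well within 1 kb. In Kcnq1 the region chr7:143175422-143177628 (Foxa1 -log10 q 34.6) was in all 3 lists. The strongest 2-week potassium channel region was at Kcnh7 and did not recur: this region, 96.9 kb upstream (chr2:63280075-63282505, fold 15.3, -log10 q 65.5), was in neither 6-month list. The strongest 2-week region of Kcnh1, inside the gene (chr1:192297729-192300916, -log10 q 59.3), was in all 3 lists.

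The remaining voltage-gated genes were Kcnd2 and Kcnd3, which carry the A-type current, and the delayed rectifier gene Kcnb2. Kcnd2 had 0, 8 and 10 regions and Kcnd3 had 1, 1 and 0. Kcnb2 had 1, 14 and 18, of which 7 Foxa1 and 9 Foxa2 regions also lay in an overlapping protein-coding gene and cannot be given to Kcnb2 alone. The calcium sensors Kcnip1 and Kcnip4, which bind A-type channels, had 2, 6 and 10 regions and 4, 9 and 10; Kcnip4, the longest member at 1136 kb, was exactly at the 2-fold limit.

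Calcium-activated channel genes were divided, with 37, 30 and 28 regions in all. Kcnma1, the large-conductance BK channel that couples calcium entry to repolarisation in smooth muscle, was the 1 member called lower, with 31, 11 and 9 regions over 713 kb (chr14:23292288-24005110). At 2 weeks 95.5% of its like-territory genes had fewer regions, and at 6 months 56.0%. Kcnn3, a small-conductance SK channel, had 5, 17 and 17, and its relative Kcnn2 had 1, 2 and 2. For Kcnn3 99.0% of like-territory genes had fewer Foxa1 regions at 6 months, but their median was 0 in all 3 lists, and Kcnn3 had a longest run of 6 Foxa1 regions in 4.93 kb at the gene's 3′ end.

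In the full lists Kcnma1 held 46, 11 and 9 regions. Of the 46 at 2 weeks 40 were in neither 6-month list and 5 overlapped a 6-month Foxa1 region, where 73.9% and 22.2% of all 2-week regions at genes did so. In 100 kb steps from the 5′ end the 2-week regions numbered 8, 7, 9, 2, 6, 2, 5 and 5. The strongest, 230 kb from the 5′ end (chr14:23774154-23776391, fold 13.6, -log10 q 54.6), overlapped a Foxa2 region at 6 months and no Foxa1 region. The 6-month counts were also the lower ones with a limit of 5 on the -log10 q (28, 5 and 5) and with near regions joined (26, 7 and 8). Without Kcnma1, also an alternative chosen after seeing the data, potassium channel genes held 49, 151 and 164 regions, a ratio of 3.08.

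The G protein-gated inward rectifier genes Kcnj3 and Kcnj6 had 1, 15 and 14 regions and 1, 5 and 4. The 15 Foxa1 regions of Kcnj3 were weak, with a highest -log10 q of 8.36, and 12 of them lay from 19.1 to 92.5 kb from the 5′ end. At Kcnj6, by contrast, the Foxa2 region chr16:94825724-94828178 (-log10 q 32.6) was in all 3 lists. Kcnk2, a stretch-sensitive leak channel, had 5, 5 and 6. Kcnt2, a sodium-activated channel, had 3, 0 and 0, and in the full lists 6, 0 and 0.

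Few channel gene regions of 6 months had been listed at 2 weeks, measured over the full lists with an overlap of at least 1 bp. Of 152 Foxa1 regions at calcium channel genes 22 overlapped a 2-week Foxa1 region, 14.5% (exact binomial 95% interval 9.30 to 21.1%), and of 165 at potassium channel genes 25 did, 15.2% (10.1 to 21.5%). Over all regions at genes the share was 36.9%, and at genes of like territory 32.2% and 29.9%. Without Cacna2d3 the calcium share was 18.7% (11.3 to 28.2%). These intervals cover counting error within 1 library only, and regions of 1 gene are not independent. The share also depends on how many 2-week regions these genes hold. It is thus not a separate result from the counts above, and the same applies to every share in the next paragraph.

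The low share was also seen for Foxa2 and for strong regions, which again depends on the number of 2-week regions. Of Foxa2 regions 14.1% (9.26 to 20.3%) at calcium and 14.5% (9.58 to 20.6%) at potassium channel genes overlapped a 2-week Foxa1 region, against 38.5% over all. Among the strongest 10% of 6-month Foxa1 regions 7 of 19 at calcium channel genes (36.8%, 16.3 to 61.6%) and 6 of 18 at potassium channel genes (33.3%, 13.3 to 59.0%) had been listed at 2 weeks, against 64.9% over all. Regions listed at 6 months only and shared by both factors made up 56.6% (48.3 to 64.6%) and 54.5% (46.6 to 62.3%) of the Foxa1 regions of the families, against 34.6% over all. This class leaves out any 2-week overlap by definition. Neither it nor the strongest regions were set beside genes of like territory.

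In the other direction the channel genes were near the background. Of 74 2-week regions at calcium channel genes 31.1% (20.8 to 42.9%) overlapped a 6-month Foxa1 region, and of 118 at potassium channel genes 20.3% (13.5 to 28.7%), against 22.2% over all. The background lay inside both intervals.

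**Figure D4:**
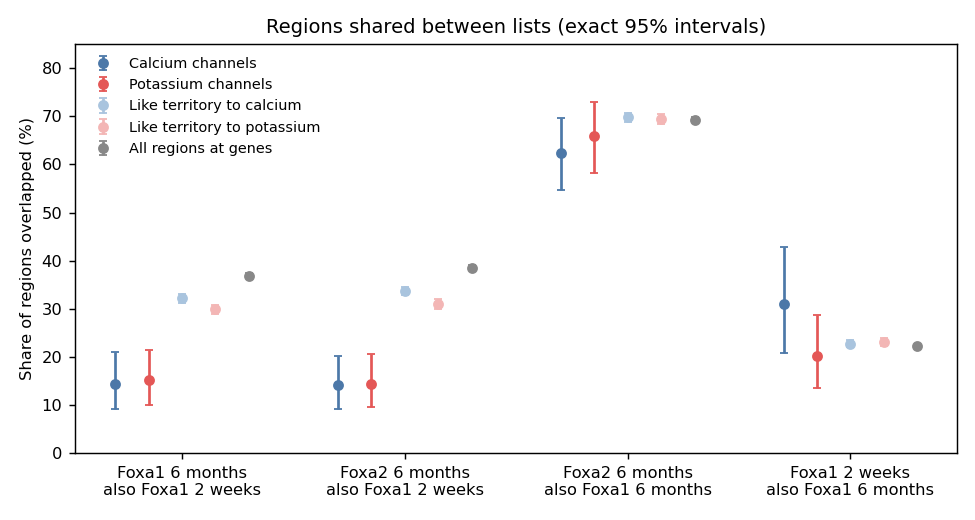
Share of regions of 1 list overlapped by a region of another (vertical axis, percent), for calcium and potassium channel genes, genes of like territory and all regions at genes; points are shares and bars exact 95% binomial intervals for counting error. For 6-month regions also listed at 2 weeks the channel points (14.1 to 15.2%) lie below the others (29.9 to 38.5%). For Foxa2 with Foxa1 at 6 months they lie at 62.4% and 65.9%, with the others at 69.3 to 69.8%. Both of these channel intervals hold the 69.3% over all regions.

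At 6 months the Foxa2 sum was 1.16 times the Foxa1 sum at calcium and 1.07 times at potassium channel genes, against 1.01 over all genes. Of 16 calcium channel genes 10 had more Foxa2 than Foxa1 regions and 1 fewer, and of 19 potassium channel genes 8 and 7. Over all protein-coding genes 3152 had more and 2730 fewer. None of 8 calcium and 15 potassium channel genes tested differed by 2-fold (0 and 0), where 3.76% of all genes tested were higher for Foxa2 and 3.74% lower. With so few genes tested, 0 is near those shares. Of Foxa2 regions 62.4% (54.6 to 69.7%) at calcium and 65.9% (58.3 to 72.9%) at potassium channel genes overlapped a Foxa1 region of the same time, against 69.3% over all and 69.8% and 69.4% at genes of like territory. Regions in the Foxa2 list alone made up 34.1% (27.0 to 41.8%) at calcium and 31.2% (24.4 to 38.7%) at potassium channel genes, against 22.8% over all. These regions overlap no 2-week Foxa1 region either, so their share also depends on the number of 2-week regions. It was not set beside genes of like territory. The strongest regions in the Foxa2 list alone were the Cacna1c region above and 1 in Kcnq5, 2.23 kb from its 5′ end (chr1:21960334-21960648, -log10 q 11.5).

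By the authors' values the regions were of ordinary strength. The median -log10 q at 6 months for Foxa1 was 4.61 at calcium and 4.50 at potassium channel genes, against 4.37 over all regions at genes, and 12.5% (7.70 to 18.8%) and 10.9% (6.59 to 16.7%) were among the strongest 10% of the list. More of them lay inside the gene, 87.5% (81.2 to 92.3%) and 85.5% (79.1 to 90.5%) against 66.6%. Channel genes are long, and this share was not set beside that of genes of like territory. A neighbour within 1 kb was present for 65.1% (57.0 to 72.7%) and 61.2% (53.3 to 68.7%) of the 6-month Foxa1 regions of the families, against 58.6% over all. At 2 weeks this was the case for 16.2% (8.67 to 26.6%) of calcium, 34.7% (26.2 to 44.1%) of potassium and 35.2% of all regions. The calcium share was thus below the background at 2 weeks, and at 6 months its interval held the background.

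The other calcium and potassium channel genes, 83 in a list of family members not among the 35, were counted in the same way. The 10 other calcium channel genes had 1 Foxa1 region at 2 weeks and 12 at 6 months; 1 was tested, Cacng3, with 0 and 7. The 73 other potassium channel genes had 99 and 101; of 16 tested 2 were called higher, Kcnip3 (3 and 10) and Kcnk9 (1 and 4), and 3 lower, Kcnj2 (9 and 1), Kcnj16 (7 and 1) and Kcne4 (5 and 2). Between factors, 3 other calcium and 19 other potassium channel genes were tested. Those called were Cacng4 with 2 Foxa1 and 6 Foxa2 regions, Kcnh2 with 1 and 7, and Kcnu1 with 6 and 2. Among all genes tested 3.76% were called higher for Foxa2 and 3.74% lower. The median territory was 74.0 kb for these other potassium channel genes and 446 kb for the 19 members.

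The 100 kb limit left out few regions. Just inside it were 2-week regions of Kcnh7 at 98.84 and 98.44 kb and of Kcnk2 at 97.77 kb. Just outside were 2-week regions 106.1 kb from Kcnma1 and 106.9 kb from Kcnb2 and a Foxa2 region 112.4 kb from Kcnj3. Beyond the limit lay 19, 23 and 23 regions whose nearest gene end was that of a channel gene.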

How the data were processed

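The authors deposited 1 ChIP-seq peak list per factor and time point, each called per library, and 3 of them entered the comparisons. Per the submitters' processing notes the build is mm10 and the tools include Trim Galore 0.5.0, Bowtie2, MACS2 2.1.1, DiffBind 2.12.0, bedtools 2.25.0, deepTools 3.2.1 and HOMER, without roles; the control used in calling is not named in the labels. Each deposited region carries a score, a fold enrichment (ratio) over the caller's local background, a -log10 p and a -log10 q, and these values are the authors' own. They were used only to rank and describe regions within a list. The deposited summit offset placed each summit. Files were paired with groups by their sample record.

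Summits were assigned to RefSeq protein-coding genes (GRCm38.p6) with Python 3.11.15, numpy 2.4.6 and pandas 2.3.3, intervals came from scipy 1.17.1 (Clopper-Pearson, 95%), and overlaps were checked with bedtools 2.31.1. Assignment, territories and overlaps were tested on simulated data. The members and gene lists were chosen with earlier results of these data known. Named are all members, the 3 strongest regions per family and list, the strongest region of each overlap class, and up to 5 other channel genes past 2-fold in each direction. The rule's printed start windows, those under a region, numbered 0, so the printed windows were chosen after their values were seen. Alternatives were full lists, a -log10 q of at least 5, joining regions under 1 kb apart, gene bodies only, 5 kb around gene ends, regions of 1 gene only, a reciprocal overlap of 50%, and summits within 200 bp.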

Additional observations from a re-analysis of the deposited data

How the results depend on the processing

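Of 54 recomputed values 34 stayed within the limit set for them and 20 moved. No setting turned a count from more genes higher to more genes lower. The count of 7 calcium channel genes higher at 6 months was 3 of 7 tested at a -log10 q of at least 5, where 6.87% of all genes were called higher, and 4 of 8 with near regions joined (10.9%). The count of 11 potassium channel genes was 4 of 14 at a -log10 q of at least 5, and 1 of 1 within 5 kb of a gene end (38.5%). With the full lists, where the 2-week list is the longest, 2 of 10 calcium and 2 of 16 potassium channel genes tested were called lower (40.3% of all genes). For potassium this was also 2 of 14 at a -log10 q of at least 5 (51.4%) and 0 of 1 within 5 kb of a gene end (6.95%). For Foxa2 against Foxa1, 1 potassium channel gene was called at a -log10 q of at least 5 (of 13 tested, 6.52% of all genes), 1 with near regions joined (of 15, 3.07%) and 1 in gene bodies only (of 13, 8%). For 6 months against 2 weeks, calcium channel genes gave no value within 5 kb of a gene end, where 0 had enough regions to test.

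The share of 6-month Foxa1 regions listed at 2 weeks was 5.26% (calcium) and 6.67% (potassium) with a reciprocal overlap of 50%, against 15.2% over all, 9.09% (potassium) with summits within 200 bp against 24.9%, and 22.8% (calcium) with near regions joined against 45.6%. The share of Foxa2 regions with Foxa1 was 34.7% and 43.9% with a reciprocal overlap of 50% (41.5% over all), 44.1% and 50.3% with summits within 200 bp (49.3%), and 81.5% (calcium) at a -log10 q of at least 5 in both lists (72.4%), so its side of the background depends on the setting in both families. The ratio of summed Foxa1 regions at potassium channel genes was 3.08 without Kcnma1. No paired analysis was possible because each group holds 1 library.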
